A study of Mus musculus with 2 samples.

Results

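Immediate early genes are transcribed within minutes of a stimulus such as serum, a growth factor or stress, before any new protein has to be made, and their mRNAs are short-lived. Most of their proteins are transcription factors that pass the signal on to later genes: FOS and JUN proteins pair as the AP-1 complex, EGR1 and NR4A1 bind DNA through zinc fingers, and MYC binds with its partner MAX. In vessel wall cells such as smooth muscle cells, serum and platelet-derived growth factor are known inducers of these genes. The 10 genes followed here were Fos, Fosb, Jun, Junb, Egr1, Ier2, Ier3, Nr4a1, Atf3 and Myc. They were chosen by name, as every probe set whose platform symbol was one of these, and made up 15 of 12488 probe sets and 10 of 8251 named genes.

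Both samples were mesoangioblasts, vessel-associated progenitor cells, and total RNA of clone D16 and of clone D351 was hybridized to 1 Affymetrix U74A array each. Either clone came from the dorsal aorta of a C57BL6 mouse embryo at day 9.5 and was cloned from a single cell suspension after 5 days of explant culture. Cloning was done on a feeder layer of primary embryonic fibroblasts stopped with Mitomycin C, in RPMI with 20% fetal calf serum, and the cells were then expanded on gelatin. Each line is 1 clone, no genetic change or treatment is named for either, and the time from the last change of serum to RNA extraction is not given in the sources used here. With 1 array per clone there is no replicate error, no test and no p-value, and all differences below are sizes measured between these arrays.

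A probe set is called detected here when its scaled intensity reached a floor of 17.5, below which levels were not told apart. Detected were 60.6% of the non-control probe sets on the D16 array and 59.3% of those on the D351 array. The 3′ over 5′ ratio of control probe sets, a sign of RNA integrity, was 1.81 in D16 and 1.37 in D351 for Actb, and 1.56 and 1.44 for Gapdh. Of 8 mesoangioblast markers on the array, 6 were detected in D16 and 5 in D351. Kdr and Kit were below the floor in both clones, and Cd34, at 475 in D16 and 6.72 in D351, was below it in D351 alone. The others went both ways: Pdgfrb (54.3 and 197) and Acta2 (939 and 1686) were higher in D351, and Thy1 (1534 and 1041) in D16. Pdgfra and Eng had log2 ratios of -0.09 and -0.07. Another probe set of Pdgfra measured 54.4 in D16 and 18.7, near the floor, in D351, a log2 ratio of -1.54. Of 6 endothelial markers 1 reached the floor in either clone, with summed levels of 51.3 in D16 and 29.3 in D351, and Cdh5, Tek, Tie1, Vwf and Icam2 were below it in both. Blood markers summed to 93.6 and 91.4 over 7 genes, with Ptprc, Itgam and Cd3e below the floor in both, but members went opposite ways. Cd68 measured 3.73 in D16 and 36.9 in D351, whereas Spi1 (26.6 and 11.2) and Hba-a1 (30.1 and 13.5) reached the floor in D16 alone. Skeletal muscle markers summed to 104 and 110 over 6 genes, with Myf5 and Ckm below it in both. Of these, Des measured 5.60 in D16 and 41.0 in D351, whereas Myog (23.1 and 11.9) and Myf6 (19.6 and 4.38) reached the floor in D16 alone. Fibroblast markers, of which 6 of 7 reached the floor in either clone and Fap in neither, summed to 5971 and 9519. The list was split: Col1a1, Col1a2, Col3a1, Dcn and Lum were higher in D351, and S100a4 measured 1834 in D16 and 414 in D351, a log2 ratio of -2.15. The part of these differences, and of the 3′ to 5′ ratios, in the results below was not tested. In such RNA samples, fewer cells with a transcript and less of it per cell cannot be told apart.

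Of the 10 immediate early genes, 9 had lower levels in D351 than in D16 and 1, Junb, had a higher level. A difference of 2-fold or more toward D16, meaning a higher level there, was found for 6 genes (Nr4a1, Ier3, Jun, Atf3, Ier2 and Myc), and one toward D351 for 0. Over all 6096 genes detected in 1 clone or both, 8.84% passed 2-fold toward D16 and 10.6% toward D351. Among the 4463 genes whose mean level lay within the range of the 10, the shares were 10.2% and 11.8%. The median log2 ratio of D351 over D16 was -1.12 for the 10 genes and -0.03 for all genes, of which 51.5% were lower in D351. Each of the 10 was detected in both clones, so no ratio is a bound.

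**Figure D1:**
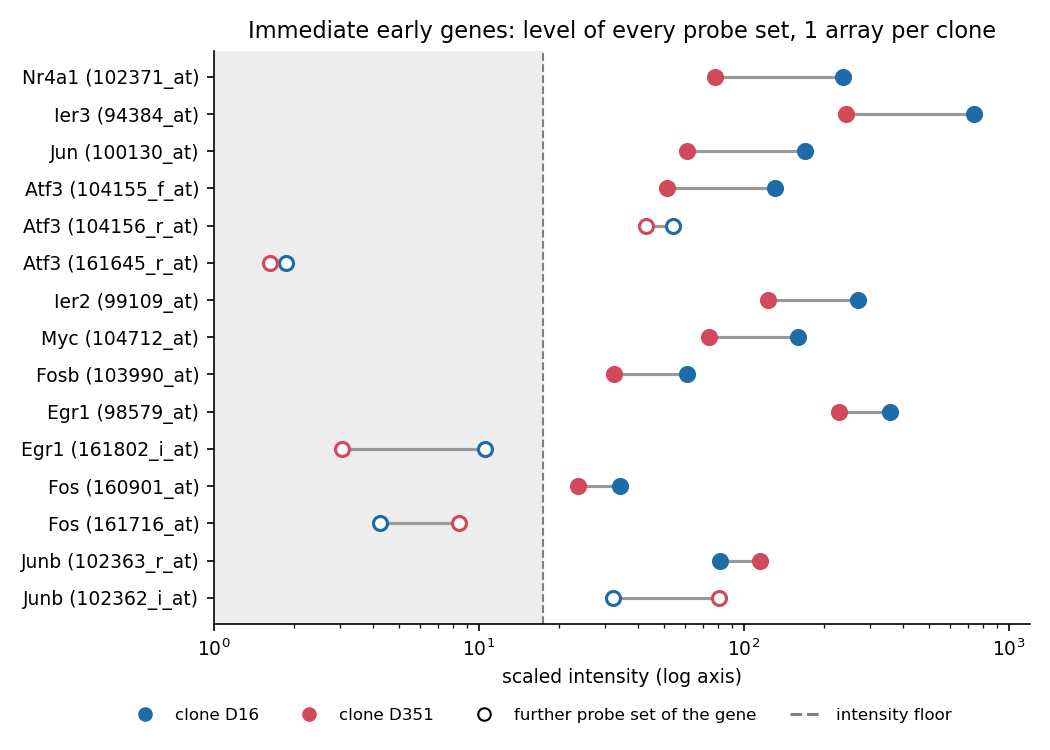
Scaled intensity (log axis) of each of the 15 probe sets in clone D16 (blue) and clone D351 (red), with 1 array per clone and so no error bars; filled points are the brightest probe set of a gene, open points its further probe sets, and the shaded part lies below the floor of 17.5. The red point lies left of the blue one for 9 of the 10 brightest probe sets, and for Junb both probe sets go the other way.

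The JUN and FOS genes encode the subunits of AP-1, a dimer held together by leucine zippers. Jun, whose protein can pair with itself or with a FOS protein, measured 171 in D16 and 61.1 in D351. It was 2.80-fold higher in D16, a log2 ratio of -1.48. Junb, which encodes a relative of JUN that can weaken the action of JUN on some targets, measured 81.3 in D16 and 115 in D351 by its brightest probe set, a log2 ratio of 0.51. Its other probe set measured 32.1 and 80.5, a log2 ratio of 1.33, so both were higher in D351 and only the dimmer one passed 2-fold. Both Junb probe sets carry a suffix (r and i) that marks designs under relaxed rules or with fewer probes.

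Fos, the founding member of the FOS family, measured 34.0 in D16 and 23.6 in D351 by the probe set that was above the floor. Its log2 ratio of -0.53 rests on levels near the floor, and its other probe set was below the floor in both clones, at 4.22 and 8.45. Fosb, a close relative of Fos, measured 60.8 and 32.4, a log2 ratio of -0.91 that did not reach 2-fold. Atf3, a stress-induced leucine zipper protein that represses targets as a homodimer, measured 131 in D16 and 51.4 in D351, which is 2.56-fold higher in D16. The probe sets of Atf3 differed in size: a further one measured 54.1 and 42.8, a log2 ratio of -0.34, and the remaining one was below the floor at 1.87 and 1.63. The brightest carries the suffix f, given to probe sets that can match related transcripts.

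Among the other factors, the orphan nuclear receptor gene Nr4a1, also called Nur77, had the lowest ratio of the 10. It measured 237 in D16 and 77.8 in D351, which is 3.05-fold higher in D16. Egr1, a zinc finger factor of the growth factor response, measured 356 and 228, a log2 ratio of -0.64 and so below 2-fold. Its other probe set was below the floor in both clones, at 10.5 and 3.05. Myc, which drives growth and ribosome production, measured 160 in D16 and 74.1 in D351, a log2 ratio of -1.11. The last pair are small proteins with no classical DNA-binding domain: Ier2 is nuclear, and Ier3 acts on ERK signalling and cell survival. Ier2 measured 270 and 123, a log2 ratio of -1.13. Ier3 measured 737 and 242, which is 3.04-fold higher in D16, close to the ratio of Nr4a1.

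The error that could be measured was the spread of the log2 ratio between probe sets of one gene, a pooled SD of 0.52 over 806 genes. It leaves out the spread between cultures. In size, 9 of the 10 ratios exceeded 1 such SD and 6 exceeded 2, with Fos just over 1 SD at 1.02 and Junb just under it at 0.98. The share of all genes past these sizes was not counted. A difference of 1.5-fold, which is larger than 1 SD, was passed by 20.9% of all genes toward D16 and 21.1% toward D351. A ratio past 1 SD is therefore common among all genes. A difference of 2-fold, slightly smaller than 2 SD, was passed by 8.84% of all genes toward D16 and 10.6% toward D351. Among all 6096 genes ordered by ratio, 151 lay below Nr4a1, 152 below Ier3, 198 below Jun and 253 below Atf3. Ier2 and Myc also lay among the lowest 10% of ratios, whereas Fosb, Egr1 and Fos stood at percentiles of 10.5, 18.6 and 23.2 and Junb at 76.2. The SD among the 10 ratios was 0.65 on the log2 scale. The 9 genes lower in D351 had a median of -1.13 and an SD among them of 0.40. As these 9 were picked by the sign of the same ratio, the negative median and narrower spread follow from that choice. At a threshold of 1.5-fold, 8 of the 10 genes were higher in D16 and 0 in D351, against 20.9% and 21.1% of all genes. At 3-fold, 2 were higher in D16 (Nr4a1 and Ier3) and 0 in D351, against 2.61% and 4.15% of all genes.

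For the 9 probe sets of the hybridization controls, the median log2 ratio was -0.39. When the arrays were scaled on these controls, the median of all genes moved from -0.03 to 0.34 and that of the 10 genes from -1.12 to -0.73. Under that scaling 3 of the 10 (Nr4a1, Ier3 and Jun) passed 2-fold toward D16 in place of 6. All genes past 2-fold then split into 1209 higher in D351 and 247 higher in D16, in place of 645 and 539. Under every scaling, floor and probe set rule tried, the 9 genes stayed lower in D351 and Junb stayed higher, except that Fos gave no ratio with the floor at the 60th percentile, being below it in both clones. The ratio of Fosb shrank to -0.19 with that floor, which at 53.3 lay above its D351 level. Some settings could not alter a sign: the lower floor, no floor and the rule against suffixed probe sets left all 10 ratios unchanged.

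**Figure D2:**
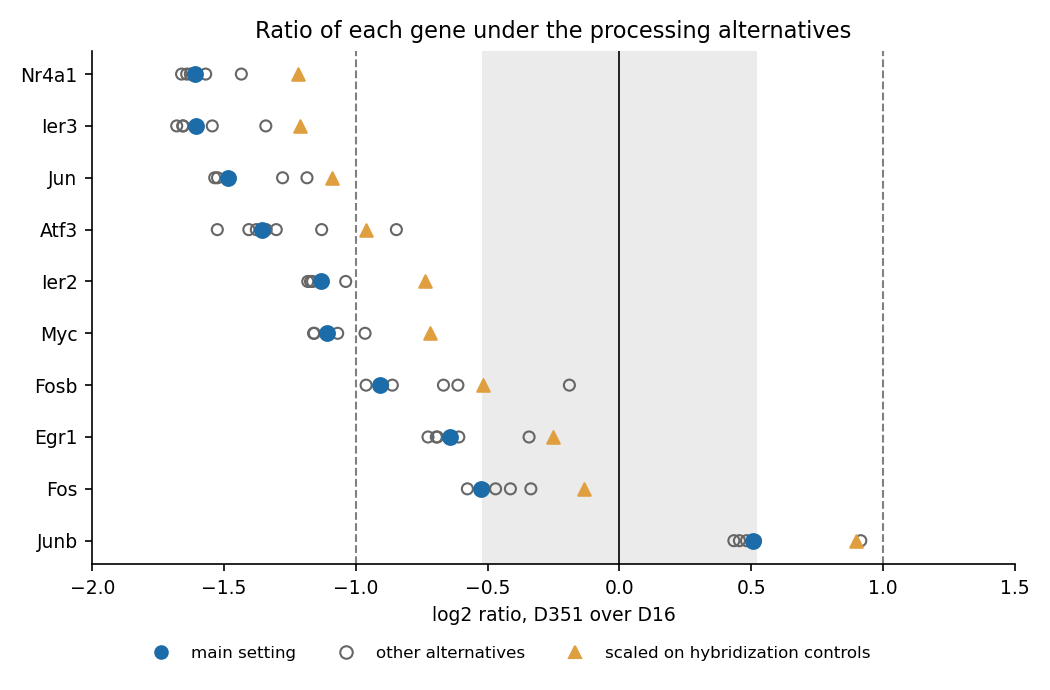
Log2 ratio of D351 over D16 for the 10 genes (blue, main setting) and under the alternatives in scaling, floor and probe set rule (grey circles; orange triangles, scaling on hybridization controls). The grey band is 1 SD between probe sets of a gene (0.52) on either side of 0, and dashed lines mark 2-fold. No alternative puts a point of the 9 lower genes right of 0 or of Junb left of it.

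The promoters of the 4 genes with the lowest ratios and of Junb, which went the other way, are shown so that their sequences can be set beside these values. Each is the 250 bases before the gene start on the gene's own strand, from RefSeq on build GRCm38.p6. Capitals mark TGACG on either strand, the core that CREB and ATF proteins bind, or TGACATCA, the element through which JUN and ATF proteins are known to act on the Jun promoter. They lie at chr15:101266596-101266845 (plus strand) for Nr4a1, chr17:35821463-35821712 (plus strand) for Ier3, chr4:95052223-95052472 (minus strand) for Jun, chr1:191183334-191183583 (minus strand) for Atf3 and chr8:84978749-84978998 (minus strand) for Junb.
Nr4a1: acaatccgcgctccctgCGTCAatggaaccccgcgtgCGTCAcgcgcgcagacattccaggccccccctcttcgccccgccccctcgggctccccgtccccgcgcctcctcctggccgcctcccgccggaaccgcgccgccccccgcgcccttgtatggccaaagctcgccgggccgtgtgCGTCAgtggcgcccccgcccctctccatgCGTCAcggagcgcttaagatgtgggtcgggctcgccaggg
Ier3: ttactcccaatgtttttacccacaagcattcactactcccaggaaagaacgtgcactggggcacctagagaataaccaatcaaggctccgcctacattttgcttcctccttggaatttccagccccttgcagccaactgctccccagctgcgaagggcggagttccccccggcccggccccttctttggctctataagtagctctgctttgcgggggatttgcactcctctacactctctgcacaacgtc
Jun: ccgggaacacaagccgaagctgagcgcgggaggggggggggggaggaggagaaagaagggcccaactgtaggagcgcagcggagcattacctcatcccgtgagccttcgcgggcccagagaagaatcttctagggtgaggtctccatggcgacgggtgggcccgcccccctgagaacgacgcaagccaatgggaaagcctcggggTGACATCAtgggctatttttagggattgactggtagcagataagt
Atf3: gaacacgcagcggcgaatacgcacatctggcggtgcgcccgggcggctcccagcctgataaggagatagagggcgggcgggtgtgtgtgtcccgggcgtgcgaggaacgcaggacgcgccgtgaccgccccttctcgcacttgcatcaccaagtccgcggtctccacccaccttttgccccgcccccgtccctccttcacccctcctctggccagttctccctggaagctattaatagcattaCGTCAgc
Junb: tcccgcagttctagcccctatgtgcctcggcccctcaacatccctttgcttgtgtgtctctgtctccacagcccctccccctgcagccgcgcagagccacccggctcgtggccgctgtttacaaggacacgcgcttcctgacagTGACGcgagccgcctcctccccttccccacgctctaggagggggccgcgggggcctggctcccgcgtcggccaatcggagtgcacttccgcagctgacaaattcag

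The RefSeq promoter table gave a window for 7 of the 10 genes by symbol. The motifs were chosen after these sequences and the ratios had been seen, and a match describes letters, not a bound site. TGACG was present in 5 of 7 windows, against 17.8% of all 32851 promoter windows of the same length. Nr4a1 held 4 matches, starting 233, 213, 69 and 40 bases before the gene start, and Fos held 2, at 129 and 66 bases. Fosb, Junb and Atf3 held 1 each, at 60, 106 and 7 bases, and Jun and Ier3 held none. TGACATCA was found in Jun alone of the 7, at 45 bases, and in 2.93% of all windows. GCGGGGGCG, a binding site of EGR1, was found in Fosb and Nr4a1 and in 2.57% of all windows. TATAAA was found in Fos, at 33 bases, and in 12.4% of all windows. The full element TGACGTCA, which contains TGACG, the AP-1 element TGAGTCA and the CArG box of serum response factor were found in 0 of 7. Of all windows, 1.55%, 4.46% and 1.47% held them, in that order. Bases outside these windows were not searched, and Egr1, Ier2 and Myc had no window. A count of 0 therefore does not show that a gene lacks the element farther upstream. TGACG occurred in Junb, higher in D351, as well as in Nr4a1, Atf3, Fos and Fosb, lower there.

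The position of the 10 genes on the chromosomes was set beside the ratios of their neighbours, taking for each gene up to 10 measured genes on either side. Of all genes, 51.5% were lower in D351, 8.84% passed 2-fold toward D16 and 10.6% toward D351. Jun lay among neighbours that were also lower in D351: the median of 20 was -0.82, and 9 of them passed 2-fold toward D16. The nearest measured genes were Plaa, with a log2 ratio of -1.68, and Fggy, with -2.02. The neighbours of Ier3 had a median of -0.50 (5 of 20 past 2-fold toward D16). Atf3 and Myc went against the medians of their surroundings, which were 0.62 (19 genes) and 0.22 (20 genes). The nearest measured genes of Atf3 were split, with log2 ratios of -0.91 for Batf3 and 0.20 for Ppp2r5a. Pvt1, the long non-coding gene next to Myc, had a log2 ratio of 0.95, against -1.11 for Myc. Sqle, the nearest measured gene on the other side of Myc, had -0.47. Over all 10 genes, the nearest measured genes on either side were 20, of which 13 were lower in D351, against 51.5% of all genes. Their median was -0.31, with 5 past 2-fold toward D16 and 0 toward D351. Those 5 included Ercc1 next to Fosb (-1.03) and Etf1 next to Egr1, although Fosb and Egr1 did not reach 2-fold. Ier2 and Junb, both on chromosome 8, had ratios of opposite sign, with medians of 0.02 and 0.24 for their 19 neighbours each. With the median of its chromosome taken from each ratio, the count past 2-fold toward D16 was again 6, and the ratio of Jun was -1.19.

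**Figure D3:**
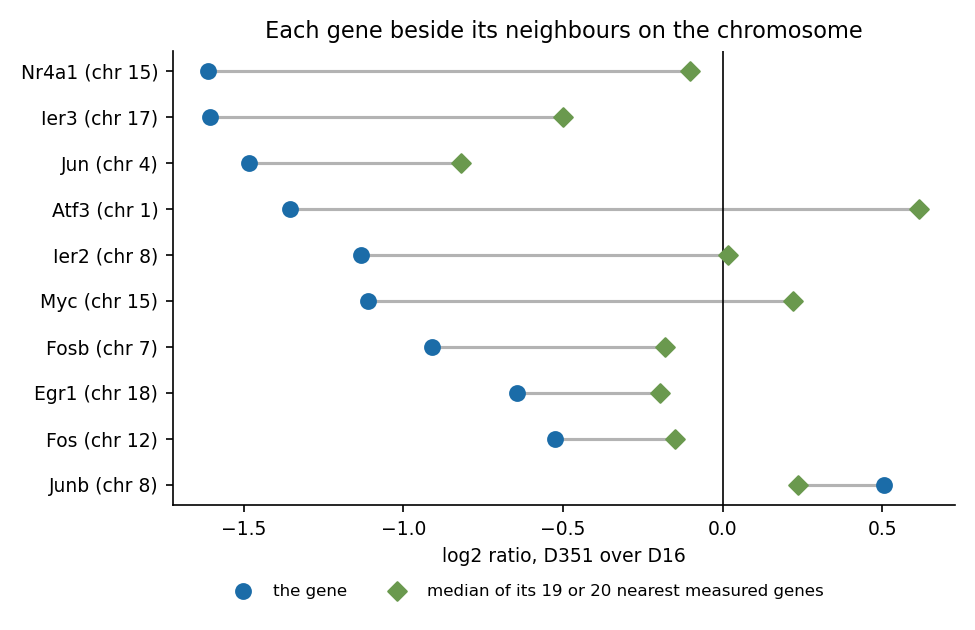
Log2 ratio of D351 over D16 for each of the 10 genes (blue circles) and the median over its 19 or 20 nearest measured genes on the chromosome (green diamonds). The gene lies below the median of its neighbours for 9 of 10, Junb lies above it, and Jun has the lowest neighbour median (-0.82).

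The lists below are to be read beside all genes, of which 8.84% passed 2-fold toward D16 and 10.6% toward D351. With scaling on hybridization controls, 247 of 6090 genes passed toward D16 and 1209 toward D351. Partners that form dimers with AP-1 and ATF proteins had smaller differences than the 10 genes. Of 17 detected in 1 clone or both, 0 passed 2-fold toward D16 and 1 toward D351, with a median log2 ratio of -0.23 that turned positive (0.11) when the arrays were scaled on hybridization controls. The count toward D351 ran from 0 (floor at the 60th percentile, mean over probe sets) to 2 (no floor), and that toward D16 was 1 as deposited, with the floor at the 25th percentile and with no floor. The gene past 2-fold was Mafg, a small MAF protein, at 21.0 in D16, near the floor, and 62.9 in D351. Another probe set of Mafg had a log2 ratio of -0.18. Fosl1, a FOS relative, measured 144 in D16 and 73.9 in D351, a log2 ratio of -0.96, and Fosl2 30.9 in D16 and below the floor in D351. Jund, the JUN relative that is made constitutively, measured 2007 and 1715, a log2 ratio of -0.23. These last 3 genes were named after their values were seen.

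Of the other EGR and NR4A genes and their NAB corepressors, 4 reached the floor and 0 passed 2-fold in either direction, although 1 passed toward D16 with the floor at the 25th percentile or with no floor. Nab2 and Nab1, which hold back EGR1, measured 273 and 127 in D16 and 364 and 158 in D351. Egr2 measured 40.6 and 45.8, and Nr4a2 25.6 in D16 and below the floor in D351; both were named after their values were seen. A list of serum response factor, its cofactors and ETS factors held 9 genes. Of these, 6 had a probe set of their own, and serum response factor itself was not among them. The floor was reached by 5 and 2-fold passed by 0, although the median was 0.89. This median is the ratio of Elk3, named after its values were seen. It is a bound, as Elk3 measured 4.91 in D16, below the floor, and 32.4 in D351. That median was 0.06 with the floor at the 60th percentile and 1.08 with scaling on hybridization controls. The count toward D351 was 3 with that scaling, 2 with the floor at the 25th percentile or no floor, and 1 with a pseudocount. The actin-sensing cofactor gene Mrtfa measured 173 in D16 and 346 in D351, 1.99-fold higher in D351, and Ets2, an ETS factor of the RAS response, 111 and 60.7.

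The other growth factor induced immediate early genes did not share the low ratios. Of 33 detected, 4 passed 2-fold toward D16 and 6 toward D351, where the shares of all genes were 8.84% and 10.6%. The median was 0.33 against -1.12 for the 10 genes. Toward D16 these were the G protein regulator gene Rgs2 (70.3 in D16 and below the floor in D351, at least 4.02-fold), the prostaglandin synthase gene Ptgs2 (141 and 41.4), Zfp36l2 (1541 and 691) and Hbegf (136 and 62.0). Another probe set of Zfp36l2 had a log2 ratio of 0.39. Toward D351 the largest were the stress response gene Gadd45g (129 and 419) and the serum-induced kinase gene Sgk1 (174 and 479). Ccn2, Gadd45b, Nfkbia and Dusp1 also passed, with log2 ratios of 1.33, 1.21, 1.11 and 1.04. Zfp36l2, Hbegf and these 4 genes were named after their values were seen. With scaling on hybridization controls the counts were 2 and 10, and the median 0.73.

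The RAS to ERK cascade carries growth factor signals to these genes. Of its 18 detected genes, 1 passed 2-fold toward D16 and 2 toward D351, with a median of 0.21. Such small counts lie near the shares of all genes, 8.84% and 10.6%. Dusp6, an ERK phosphatase that is itself induced by ERK activity, measured 287 in D16 and 58.6 in D351, which is 4.89-fold higher in D16. The adaptor gene Gab1 and the RAS relative Rras were 3.18-fold and 2.13-fold higher in D351. The count toward D351 was 6 with scaling on hybridization controls and 1 with a pseudocount, and that toward D16 was 2 with the floor at the 25th percentile or no floor.

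Genes known as targets of the 10 factors went different ways. MYC targets had lower levels in D351, with 26 of 30 lower, 6 past 2-fold toward D16, 1 past 2-fold toward D351 and a median of -0.63. Of all genes, 51.5% were lower in D351, 8.84% passed 2-fold toward D16 and 10.6% toward D351. With scaling on hybridization controls the median stayed negative at -0.25, and 4 passed 2-fold toward D16. Odc1, the first enzyme of polyamine synthesis and a classical MYC target, measured 404 in D16 and 99.4 in D351, 4.06-fold higher in D16. Shmt1, a one-carbon enzyme gene, measured 98.1 and 21.1, near the floor, and Nop56, a nucleolar protein gene of ribosome assembly, 619 and 224. The exception past 2-fold was the cyclin gene Ccnd2, at 52.6 in D16 and 165 in D351. In the MYC network itself, 3 of 13 genes passed 2-fold toward D16 and 0 toward D351, with a median of 0.15. With scaling on hybridization controls 2 passed toward D351 and the median was 0.54, and with no floor 1 passed toward D351. Mxd3, a MAX partner, measured 110 and 20.4, near the floor, Ruvbl2, a MYC cofactor, 522 and 104, and Aurka, a mitotic kinase that stabilizes MYC proteins, 206 and 59.7. Max, named after its values were seen, measured 90.5 in D16 and 150 in D351.

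Among 12 detected AP-1 targets, 4 passed 2-fold toward D16 and 0 toward D351, with a median of -0.11. The shares of all genes were 8.84% and 10.6%. The median of -0.11 depended on the settings. With the floor at the 60th percentile it was -1.34, below the -1.13 of the 10 genes without Fos, which gave no ratio there. It was -0.29 with no floor. Its sign changed under quantile and loess normalization and under scaling on hybridization controls (0.02, 0.03 and 0.11), and with the floor at the 25th percentile (0.01). The count toward D351 was 2 with the floor at the 25th percentile or no floor, and 1 with scaling on hybridization controls. The count toward D16 was 5 with the mean over probe sets or no floor, and 3 with scaling on hybridization controls. Ccnd1 had a log2 ratio of -0.61 by its brightest probe set and -1.80 by another. The 4 genes toward D16 were the membrane linker gene Ezr (303 in D16 and 26.6 in D351), the metallothionein genes Mt2 (689 and 87.1) and Mt1 (446 and 176), and the urokinase receptor gene Plaur (140 and 47.8). Of 11 detected EGR1 targets, 4 passed 2-fold toward D351 and 0 toward D16, while Egr1 itself was lower there. F3, which encodes tissue factor, measured 93.9 in D16 and 1311 in D351, and Vegfa, the vascular growth factor gene, 34.7 and 75.8. The receptor genes Fas and Flt1 were below the floor in D16 and measured 106 and 66.2 in D351, differences of at least 6.04-fold and 3.78-fold. With the floor at the 60th percentile the count toward D351 was 1 in place of 4, and 1 gene passed toward D16 with the floor at the 25th percentile, with no floor and with a pseudocount. The median of this list was 0.02. It ran from -0.03 as deposited to 0.60 with no floor, and was 0.41 both with scaling on hybridization controls and with the floor at the 60th percentile.

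**Figure D4:**
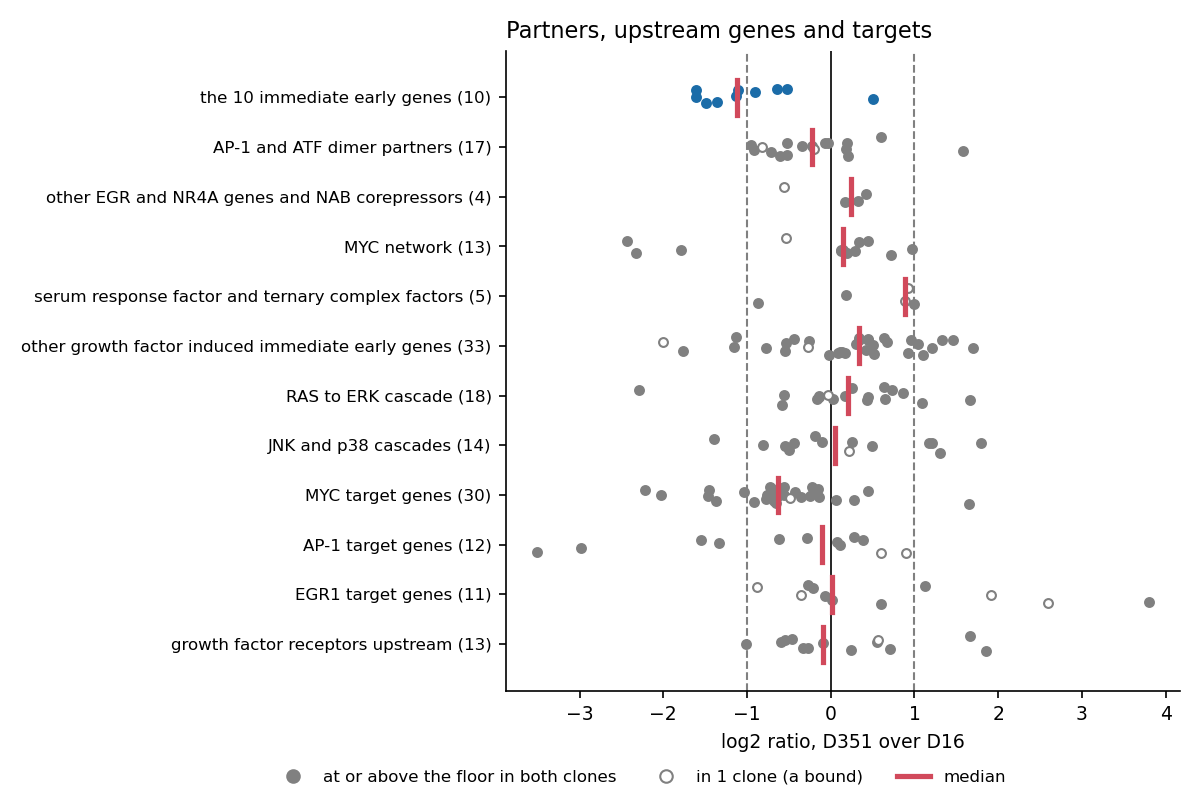
Log2 ratio of D351 over D16 per gene for the 10 immediate early genes (blue) and for the lists of partners, upstream genes and targets (grey), with the number of detected genes in brackets; open points are bounds, red bars medians, dashed lines 2-fold, and the vertical spread within a row has no meaning. The median of the 10 genes (-1.12) and that of the MYC targets (-0.63) are the lowest of the 12 medians in the main setting, and the other growth factor induced genes have a median of 0.33.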

How the data were processed

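The authors deposited 1 linear intensity per probe set and array. How they scaled it and corrected the background is not given in the sources used here. The 2% trimmed mean was 100.1 in either array. Here the arrays were brought to 1 median log2 level, taken over the non-control probe sets that reached a floor in both (factors 0.983 and 1.02). The floor was the mean of the arrays' 40th percentiles, and values under it were raised to it. A ratio with 1 such value is a bound, written as at least N-fold.

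Names came from GEO's platform annotation, whose array version was not checked, with symbols updated by Entrez number to RefSeq (GRCm38.p6): 10833 had 1 symbol, 396 several and 1193 none. Each gene takes the values of its brightest probe set. The members and lists were chosen with earlier results of these data known. Genes named from a list were the up to 4 largest ratios past 2-fold, or, with none, the 2 highest in level. Alternatives covered scaling, floor (none, the 25th or the 60th percentile, a pseudocount of 16), probe set rule and threshold. The calculation was tested on simulated arrays. Python 3.11.15, numpy 2.4.6, pandas 2.3.3, statsmodels 0.14.6 and matplotlib 3.10.9 were used.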

Additional observations from a re-analysis of the deposited data

How the results depend on the processing

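No paired analysis was possible because there is 1 array per clone, so that no replicate could be left out either. The count of genes past 2-fold toward D16 was 6 of 10 in the main setting, 3 with scaling on the hybridization controls and 2 at a threshold of 3-fold, and lay between 5 and 8 under the other alternatives. The count toward D351 was 0 under all alternatives run. The median log2 ratio of the 10 genes ran from -1.17 (as deposited) to -0.73. Of 109 ratios of single genes under the alternatives, 108 moved by less than the probe set SD and 1, Fosb with the floor at the 60th percentile, by more (-0.19). Many of the 108 could not have moved by more. The lower floor, no floor and the rule against suffixed probe sets left all 10 ratios unchanged. Scaling as deposited or on the hybridization controls shifted every gene by the same amount, smaller than the probe set SD. The count of 108 is therefore no measure of how stable the ratios are. Of 110 list medians 107 stayed within that SD, and of 264 list counts 203 within 1.5 times the main count. Ratios relative to the chromosome median were added after the data were seen. Levels near the floor, as for Fos, limit how well a size is known.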

Other observations

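Stress kinase and receptor genes upstream of the immediate early genes differed in both directions. In the JNK and p38 cascades, 4 of 14 detected genes passed 2-fold toward D351 and 1 toward D16. The shares of all genes were 10.6% and 8.84%. With the floor at the 60th percentile or with a pseudocount the counts were 2 and 0, and with no floor 5 and 3. The median log2 ratio was 0.06, and its sign changed with the floor at the 25th percentile (-0.11), with no floor (-0.11) and with a pseudocount (-0.06). The p38 kinase gene Mapk14 measured 67.9 in D16 and 236 in D351, by a probe set of the s type, which can match more than 1 gene. Mapkapk2, a kinase downstream of p38, measured 142 and 350, and Map3k7 19.7, near the floor, and 45.4. In the other direction, the p38 activator gene Map2k6 measured 52.1 in D16 and 19.7, near the floor, in D351.

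Among 13 growth factor receptor genes, Pdgfrb (54.3 in D16 and 197 in D351) and Egfr (30.1 and 95.0) passed 2-fold toward D351. That count was 1 with the floor at the 60th percentile and 4 with no floor. Of all genes, 10.6% passed 2-fold toward D351 and 8.84% toward D16. S1pr1, a receptor for the serum lipid sphingosine 1-phosphate, was 2.01-fold higher in D16, with a D351 level of 19.6, near the floor, by a probe set of the f type. It was the 1 gene counted toward D16, and that count was 0 under quantile and loess normalization, scaling on hybridization controls, the floor at the 60th percentile, a pseudocount, and without suffixed probe sets. The median of this list was -0.09. It was positive with scaling on hybridization controls (0.30), with the floor at the 25th percentile (0.07) and under both other probe set rules (0.24 and 0.26).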
